A study of Mus musculus with 15 samples.

Results

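The 4 mature strands of the mir-132 and mir-212 hairpins, mmu-miR-132-3p, mmu-miR-132-5p, mmu-miR-212-3p and mmu-miR-212-5p (written without the mouse prefix from here on), were followed by name through small RNA libraries of 15 mouse tissues and embryo stages. All 4 were found among the 1558 mature names of the libraries, and each had at least 1 read in every library. The nervous class held brain, spinal cord and eye. The embryo class held whole embryos labelled 11, 15 and 17 days, and the other adult class held heart, kidney, liver, lung, salivary gland, smooth muscle, spleen, stomach and testis. All RNA was total RNA from a purchased mouse panel, and the labels give no strain, age, sex, treatment or number of animals. Adult is thus a name given here to tissues not labelled as embryos. The library titled 17 days has a source field of 15 days, and its title was used. Libraries were made by AQ-seq, a small RNA protocol whose adapters carry randomized ends to lower ligation bias, and each tissue or stage had 1 library.

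The mir-132 and mir-212 hairpins are cut from 1 primary transcript, which neurons make more of when synaptic activity or growth factors such as BDNF activate the transcription factor CREB. In mouse neurons miR-132-3p is known for promoting dendrite growth and spine formation, in part by lowering the GTPase-activating protein p250GAP. Outside the nervous system the family is known from heart muscle cells, where in mice it lowers FoxO3 and promotes hypertrophy. The labels name no stimulus for any library, so the response to activity was not measured here, only the level in each tissue as collected.

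The sequences show why the 3p strands are read as a family and the 5p strands are not. Below, from RefSeq for GRCm38.p6, are the mature strands 5′ to 3′, with the seed (bases 2 to 8, the part that pairs with targets) in capitals.
miR-132-3p: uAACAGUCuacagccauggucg
miR-212-3p: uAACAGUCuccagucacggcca
miR-132-5p: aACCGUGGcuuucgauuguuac
miR-212-5p: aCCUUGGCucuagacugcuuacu

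The seed AACAGUC was shared by miR-132-3p and miR-212-3p and by none of the other names among the 1679 mature mouse names searched. The seeds of miR-132-5p and miR-212-5p each occurred in 1 name. Both 3p strands are 22 bases long and were identical at 17 positions counted from the 5′ end. From miR-132-3p to miR-212-3p the differences are A10C, C14U, U17C, U20C and G22A, so the strands part after the seed.

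The hairpins are shown whole, since their arms are compared further on, with the mature strands in capitals.
Mir132: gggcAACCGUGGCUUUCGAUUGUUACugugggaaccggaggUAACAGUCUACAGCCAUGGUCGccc
Mir212: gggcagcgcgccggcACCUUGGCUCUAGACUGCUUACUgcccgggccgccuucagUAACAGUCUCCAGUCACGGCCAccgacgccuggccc

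Mir212 (91 bases) lies at chr11:75173388-75173478 and Mir132 (66 bases) at chr11:75173682-75173747, both on the plus strand of GRCm38, with 203 bases between them. In the GENCODE annotation both fall in intron 1 of the noncoding gene 1700016P03Rik (chr11:75172560-75177633, plus strand, 3 exons). No other hairpin of the 1005 searched shared an exact stretch of 18 bases with either. Copies with mismatches or elsewhere in the genome were not searched.

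Brain was sequenced deepest, with 3161463 reads, and testis least, with 148052. Levels are CPM, reads scaled to a library total of 1000000, and 3 reads stood for 0.949 CPM in brain and 20.3 CPM in testis. Intervals are at the 95% level and cover the counting error of reads only, not the spread between libraries or animals. PCR copies are not separate molecules, so the intervals may be too narrow even for counts of molecules. The 6 neuronal miRNAs used as markers (miR-124-3p, miR-9-5p, miR-128-3p, miR-137-3p, miR-153-3p and miR-129-5p) had reads in every library. Their summed level was 118940 to 219571 CPM in the nervous libraries, 41749 to 76083 CPM in the embryos and 338 to 2884 CPM in the other adult libraries. The library labelled smooth muscle held 154308 CPM of the smooth muscle miRNAs miR-143-3p and miR-145a-5p, but 182999 CPM of miR-192-5p and miR-194-5p, known from gut and kidney epithelium. The defining markers of heart, liver, spleen and testis were highest in the library of that name.

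miR-132-3p, the more abundant strand of its hairpin and the main carrier of the shared seed, was highest in brain. It stood at 11531 CPM in brain, 4761 CPM in spinal cord and 1189 CPM in eye, at 108, 207 and 288 CPM in the 11-, 15- and 17-day embryos, and in the other adult libraries between 77.8 CPM in liver and 591 CPM in smooth muscle, with a median of 176 CPM. Every nervous library lay above every other adult library, while the embryos lay inside the other adult range. With the TMM scaling of the tests, the 11- and 15-day embryos, at 48.0 and 108 CPM, fell under the lowest other adult library, spleen at 113 CPM. In brain it took 1.15% of all reads and ranked 18 among the names, whereas its rank was 50 in spinal cord, 87 in eye and between 113 and 358 in the remaining libraries. Tissue RNA is a mixture, so fewer cells that make a strand and less of it per cell cannot be told apart.

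miR-132-5p, the minor strand of mir-132, kept the same order at the top. Its level was 1715 CPM in brain, 590 CPM in spinal cord and 125 CPM in eye, 10.6, 17.8 and 23.6 CPM in the 11-, 15- and 17-day embryos, and 6.75 to 48.6 CPM in the other adult libraries, with a median of 14.6 CPM. Again all 3 nervous libraries were above the whole other adult range, which took in the embryos. With TMM scaling the 11-day embryo, at 4.74 CPM, fell under the lowest other adult library, spleen at 8.73 CPM.

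miR-212-3p, which shares its seed with miR-132-3p, was rarer than it in every library. It reached 829 CPM in brain, 309 CPM in spinal cord and 49.7 CPM in eye, 17.9, 23.9 and 31.2 CPM in the 11-, 15- and 17-day embryos, and 6.75 to 51.0 CPM in the other adult libraries, with a median of 10.3 CPM. Eye was no longer separate, since stomach (51.0 CPM) and smooth muscle (50.9 CPM) lay just above it with overlapping intervals. The lowest value, that of testis, rests on 1 read.

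miR-212-5p, the rarest of the 4, had 312 CPM in brain, 155 CPM in spinal cord and 15.4 CPM in eye, 5.98, 11.2 and 8.38 CPM in the 11-, 15- and 17-day embryos, and 1.15 to 17.9 CPM in the other adult libraries, with a median of 2.78 CPM. Brain and spinal cord stood clear of all other libraries, and eye lay between smooth muscle (17.9 CPM) and testis (13.5 CPM, from 2 reads).

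**Figure D1:**
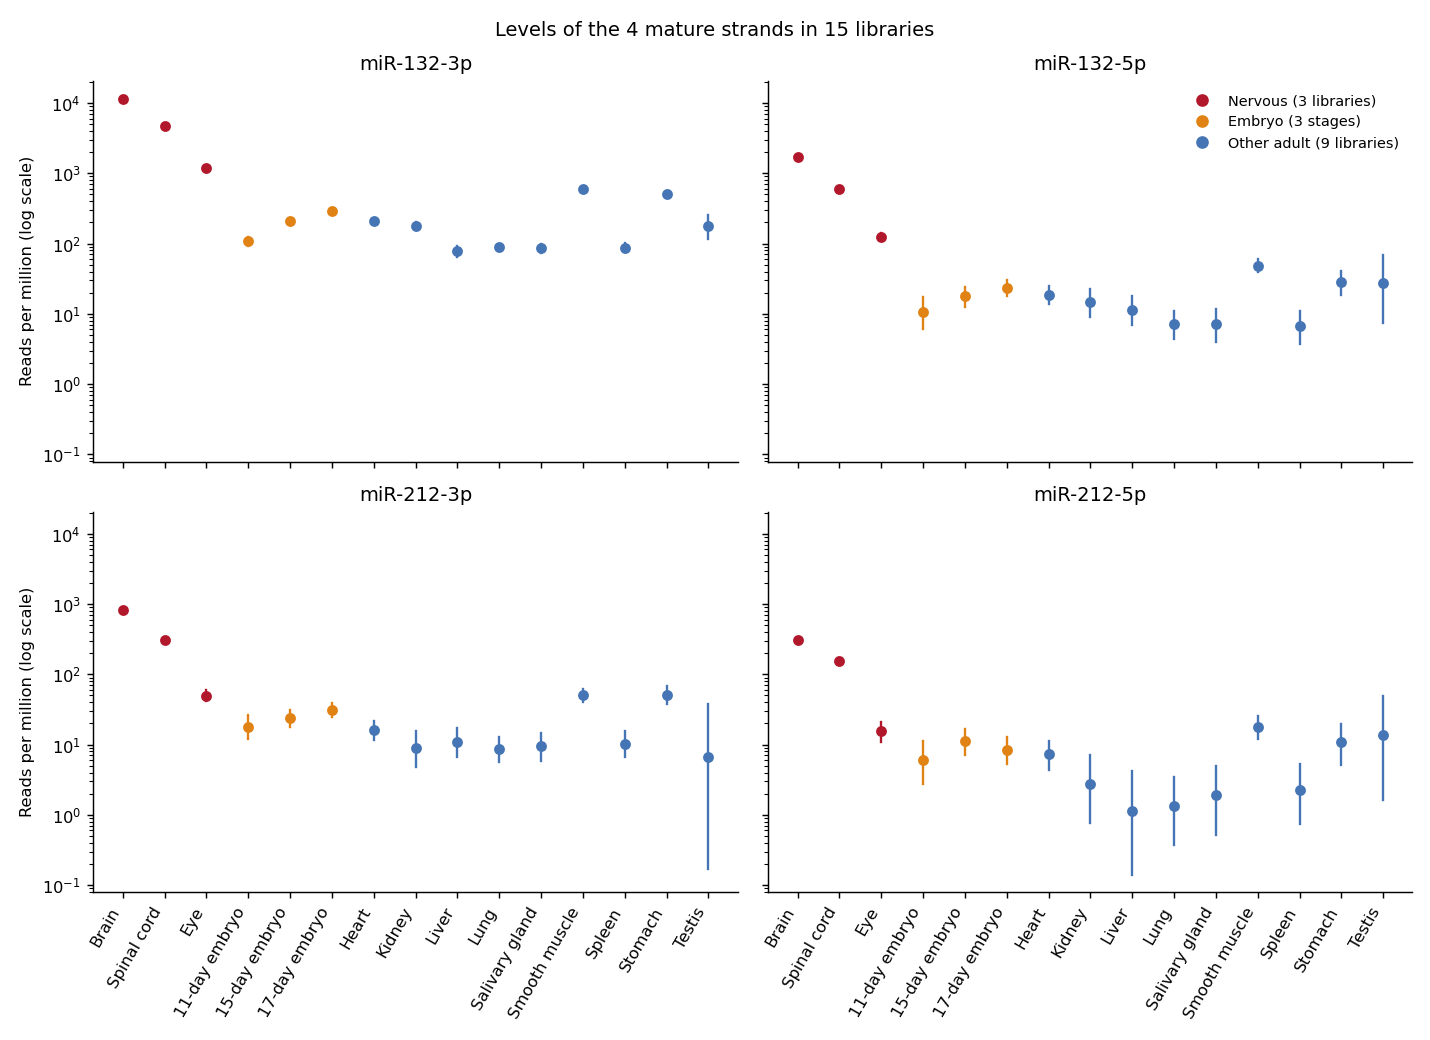
Level of each strand in CPM (log scale) by library, with 95% Poisson intervals as bars, each library being 1 point. Brain (11531 CPM for miR-132-3p) leads in all 4 panels, spinal cord follows, and eye is above the other adult libraries for the mir-132 strands but not for the mir-212 strands.

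The gap between brain and eye was wider for mir-212 than for mir-132. Brain exceeded spinal cord by a similar factor for every strand, 2.42-fold for miR-132-3p, 2.91-fold for miR-132-5p, 2.68-fold for miR-212-3p and 2.01-fold for miR-212-5p. Brain exceeded eye 9.70-fold for miR-132-3p and 13.7-fold for miR-132-5p, but 16.7-fold for miR-212-3p and 20.3-fold for miR-212-5p. These are differences between single libraries, with no replicate to test them.

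In the order of levels, brain, spinal cord and eye had intervals apart from their neighbours for both mir-132 strands. For miR-132-3p smooth muscle and stomach overlapped each other, the 17-day embryo stood apart below them, and from heart down every neighbour in the order overlapped the next. For miR-132-5p all neighbours below eye overlapped. For miR-212-3p stomach, smooth muscle and eye overlapped, as did all neighbours from the 17-day embryo down, and for miR-212-5p all neighbours below spinal cord overlapped. At this depth those neighbours could not be ranked.

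All 4 strands were among the names most concentrated in brain. Of the sum of its CPM values over the 15 libraries, brain held 64.7% for miR-132-5p, 57.8% for miR-212-3p, 57.4% for miR-132-3p and 55.0% for miR-212-5p. The median over the 718 names with at least 100 reads in all was 4.0%, and the 4 strands took ranks 2, 3, 4 and 6. Ranks 1 and 5 were held by miR-128-3p (65.6%) and miR-128-1-5p (57.3%), strands of the neuronal mir-128 family, which are named here after their values were seen. This is a description of single libraries, with no test.

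The question of the first comparison is whether the strands were more abundant in nervous tissue than in the other adult tissues. All 4 rose in the nervous class, where 28.4% of the 693 names tested rose. miR-132-3p averaged 5827 ± 5252 CPM in the nervous libraries (SD, n = 3) and 223 ± 194 CPM in the other adult libraries (SD, n = 9), and the log2 fold change on TMM-scaled counts was 3.97 ± 0.73 (SE, edgeR adjusted p = 0.00044). TMM rescales the library totals, so these fold changes are not ratios of the CPM means printed beside them. For miR-132-5p the means were 810 ± 817 and 18.9 ± 13.8 CPM in the nervous and other adult libraries, and the TMM-scaled log2 fold change was 4.70 ± 0.71 (edgeR adjusted p = 8.6e-05). miR-212-3p changed by 3.56 ± 0.75 (edgeR adjusted p = 0.0014) and miR-212-5p by 3.93 ± 0.82 (edgeR adjusted p = 0.0012). Among all 693 names the strands ranked 83 to 136 from the highest change down, and the median change was -0.21.

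The SD of the nervous class was about as large as its mean, with brain far above eye. Without brain the log2 fold changes were 2.96 for miR-132-3p, 3.46 for miR-132-5p, 2.33 for miR-212-3p and 2.92 for miR-212-5p, all still past the threshold (highest edgeR adjusted p 0.037). Every nervous library lay above all other adult libraries for both mir-132 strands, a pattern seen in 21.9% of all names, and 2 of 3 did for the mir-212 strands. With 1 library per tissue the p-values measure the spread between these libraries, not between animals, and it may in part be technical. Of the names called, 197 were higher and 87 lower, against 226 higher and 56 lower with total-count scaling, which moved the median change of all names by 0.47. The strands then stood at 4.69 for miR-132-3p, 5.42 for miR-132-5p, 4.33 for miR-212-3p and 4.69 for miR-212-5p, with every call kept.

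The same question was put against the embryos. All 4 strands rose in the nervous class, where 14.3% of names rose and 11.7% fell, by 5.70 ± 1.20 for miR-132-3p (SE, edgeR adjusted p = 0.0041), 6.37 ± 1.18 for miR-132-5p (edgeR adjusted p = 0.0022), 4.85 ± 1.19 for miR-212-3p (edgeR adjusted p = 0.010) and 5.02 ± 1.28 for miR-212-5p (edgeR adjusted p = 0.012) on the log2 scale. Their ranks from the highest change down were 8, 14, 22 and 24 of 693, for miR-132-5p, miR-132-3p, miR-212-5p and miR-212-3p in that order. Without brain the changes were 4.75 for miR-132-3p, 5.20 for miR-132-5p, 3.69 for miR-212-3p and 4.08 for miR-212-5p, all past the threshold. Scaling to total counts moved the median of all names by -0.89 and gave 43 higher and 115 lower calls, against 99 higher and 81 lower with TMM. The strands then stood at 4.86 for miR-132-3p, 5.54 for miR-132-5p, 4.02 for miR-212-3p and 4.22 for miR-212-5p, with every call kept.

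In embryos against the other adult tissues none of the 4 strands passed the test, in a comparison where 27% of names rose and 17.2% fell, and no strand had all 3 embryos above all other adult libraries, a pattern of 35.2% of names. miR-132-3p averaged 201 ± 90 CPM in the embryos (SD, n = 3) and 223 ± 194 CPM in the other adult libraries (SD, n = 9), and differed by -1.72 ± 0.90 on the log2 scale with TMM (SE, edgeR adjusted p = 0.13). The values were -1.67 ± 0.85 for miR-132-5p, -1.29 ± 0.90 for miR-212-3p and -1.09 ± 0.96 for miR-212-5p (edgeR adjusted p 0.12 to 0.37). The sizes depend on the scaling. TMM factors were 1.92 to 2.25 in the embryos and 0.449 to 1.77 in the other adult libraries, and with total counts in their place the median change of all names moved up by 1.28 and the split of calls was 287 higher and 42 lower, against 187 higher and 119 lower with TMM. The mir-132 values then became -0.17 for miR-132-3p and -0.12 for miR-132-5p, and the mir-212 values turned positive, 0.31 for miR-212-3p and 0.47 for miR-212-5p.

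**Figure D2:**
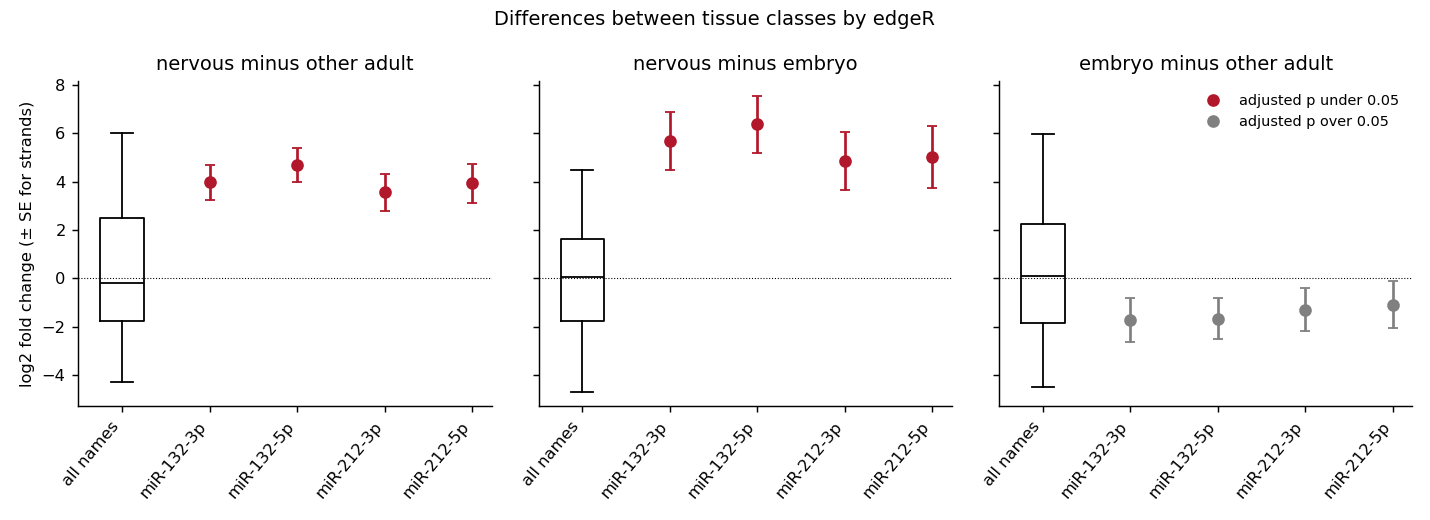
log2 fold change by edgeR with TMM scaling for each strand (points, ± SE) beside all 693 names tested (box, quartiles and median; whiskers, 5th to 95th percentile) in the comparisons named above each panel. The strands lie between 3.56 and 6.37 in both nervous panels, and between -1.72 and -1.09 in the embryo panel, where no strand passed and the mir-212 values turn positive with total-count scaling.

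Across the embryo stages as titled miR-132-3p was higher at each later day, with the reserve that the source field of the 17-day library reads 15 days. The intervals were 91.7 to 126 CPM at day 11, 189 to 228 CPM at day 15 and 267 to 309 CPM at day 17, which do not overlap, and day 17 was 2.67-fold above day 11. For miR-132-5p day 17 was 2.22-fold above day 11, with intervals of 6.08 to 17.3 CPM at day 11 and 18.1 to 30.3 CPM at day 17. The mir-212 strands had overlapping intervals at all 3 stages, with 9 to 24 reads of miR-212-5p and 27 to 82 of miR-212-3p. Over the same stages the summed neuronal markers were 76083, 75129 and 41749 CPM at days 11, 15 and 17. The sum was thus lowest at the stage where miR-132-3p was highest, but its members did not all move alike. Most of the sum was miR-9-5p, at 63222, 59669 and 28267 CPM, and miR-124-3p, miR-137-3p and miR-153-3p were also lowest at day 17. By contrast miR-128-3p rose with miR-132-3p, at 1304, 2693 and 3750 CPM, and so did miR-129-5p, at 29.9, 54.3 and 62.1 CPM. The erythroid miRNAs miR-451a and miR-144-3p summed to 32737, 69883 and 92421 CPM at days 11, 15 and 17, and the muscle miRNAs miR-1a-3p and miR-133a-3p to 2667, 12041 and 17239 CPM, and their part in the result was not tested. Each stage was 1 library of whole embryo, and the change between stages has no test.

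Set against neuronal markers, the strands differed widely between libraries rich in neuronal markers. Per 1000 reads of the 6 markers there were 52.5 reads of miR-132-3p in brain, 40.03 in spinal cord and 9.79 in eye, and 1.41, 2.76 and 6.89 in the 11-, 15- and 17-day embryos. For miR-212-3p the values were 3.78 in brain, 2.60 in spinal cord and 0.409 in eye, and 0.236, 0.318 and 0.748 in the 11-, 15- and 17-day embryos. Spinal cord and eye had nearly the same marker sum, 118940 and 121462 CPM, but spinal cord had 4.0 times the miR-132-3p of eye.

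The markers themselves were unevenly placed. In the embryos most of the sum was miR-9-5p, at 63222, 59669 and 28267 CPM at days 11, 15 and 17. The embryo values per 1000 marker reads thus rest largely on miR-9-5p, which fell while miR-132-3p rose. Which cells of the whole embryos held the miR-9-5p was not tested. In eye most of the sum was miR-124-3p, at 92103 CPM, against 20215 CPM in spinal cord and 49811 CPM in brain. miR-128-3p stood at 54694 CPM in brain, 15532 CPM in spinal cord and 1502 CPM in eye, and miR-137-3p at 6087, 3922 and 83.6 CPM in brain, spinal cord and eye. The order of the mir-132 strands, with brain first and eye last, was seen in 4 of the 6 markers, while miR-124-3p and miR-129-5p (1950 CPM in eye, 1827 CPM in brain and 1035 CPM in spinal cord) were highest in eye. The photoreceptor miRNAs miR-182-5p, miR-183-5p and miR-96-5p summed to 120386 CPM in eye, 1789 CPM in brain and 1429 CPM in spinal cord, and the oligodendrocyte miRNAs miR-219a-2-3p and miR-338-3p to 45779 CPM in spinal cord, 11997 CPM in brain and 3629 CPM in eye. The part that the mix of neuron types and other cells has in these differences was not tested.

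**Figure D3:**
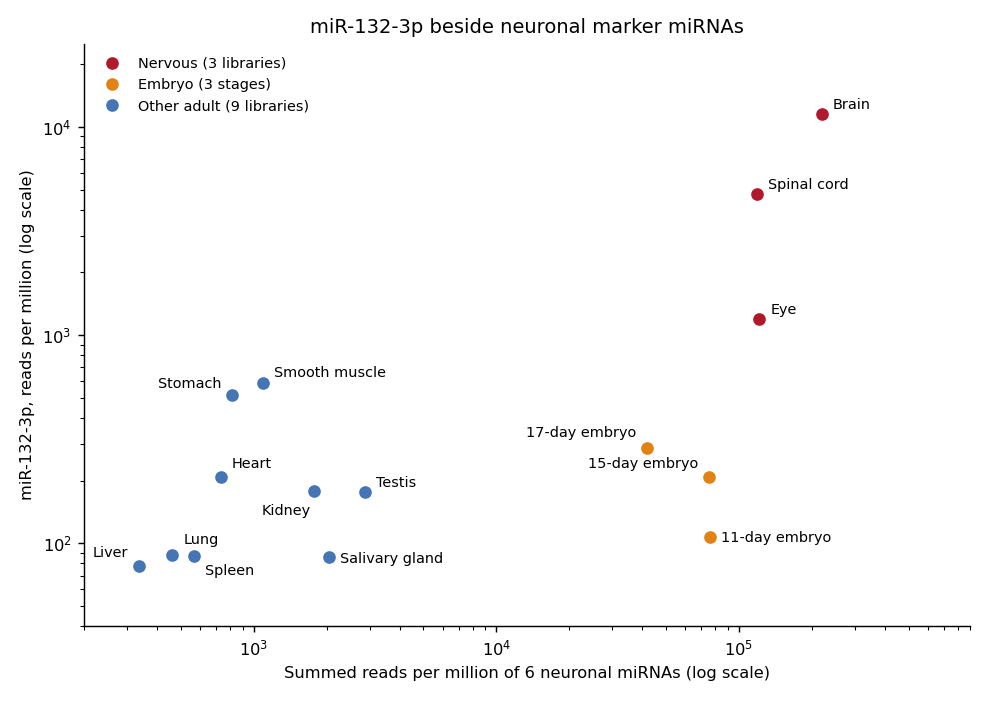
miR-132-3p level (vertical, CPM, log scale) against the summed CPM of 6 neuronal miRNAs (horizontal, log scale), 1 point per library. Spinal cord (4761 CPM) and eye (1189 CPM) have nearly the same marker sum (118940 and 121462 CPM). The embryos have higher marker sums than the other adult libraries, mostly from miR-9-5p, with little miR-132-3p. Stomach and smooth muscle have low marker sums, with more miR-132-3p than the other adult libraries around them.

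Outside the nervous class smooth muscle and stomach held the most miR-132-3p. It had 591 CPM in smooth muscle (556 to 629) and 514 CPM in stomach (469 to 562), against at most 208 CPM, in heart, in the remaining other adult libraries. The gap depends on the scaling, since with TMM the values were 1037 CPM in smooth muscle, 608 CPM in stomach and 464 CPM in heart. The neuronal markers summed to 1091 CPM in smooth muscle and 817 CPM in stomach, below the 2048 CPM of salivary gland. In salivary gland miR-132-3p stood at 85.4 CPM. The markers did not all follow their sum. miR-137-3p had 163 CPM in smooth muscle and 61.8 CPM in stomach, against 44.6 CPM in salivary gland. For miR-153-3p the values were 31.2, 86.8 and 25.9 CPM in the same order. miR-9-5p, miR-124-3p, miR-128-3p and miR-129-5p were highest in salivary gland of these libraries. The part of neurons in the miR-132-3p of smooth muscle and stomach was not tested. Smooth muscle and stomach had the highest levels of miR-143-3p and miR-145a-5p. Their sum was 154308 CPM in smooth muscle and 264929 CPM in stomach. In the 7 remaining other adult libraries it was between 14122 and 54602 CPM. Whether this moves the miR-132-3p level was not tested.

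The 3p arm held most reads of both hairpins, except for mir-212 in testis with its 3 reads, and the 5p share was larger for mir-212 than for mir-132 in every library but liver. The 5p share, the 5p reads as a percent of both arms, was 12.9% for mir-132 in brain (12.6 to 13.3, 41877 reads), 11.0% in spinal cord (10.5 to 11.6) and 9.54% in eye (8.56 to 10.6). It was 8.99%, 7.90% and 7.59% in the 11-, 15- and 17-day embryos, and ran from 5.20% in stomach (3.42 to 7.53) to 13.3% in testis (3.76 to 30.7, 30 reads) in the other adult libraries. The brain share lay above those of spinal cord and eye with intervals apart, and above all other adult libraries except testis, while liver had a nearly equal 12.9% (8.06 to 19.2).

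For mir-212 the order of brain and spinal cord turned round. The 5p share was 27.4% in brain (25.9 to 28.8, 3608 reads), 33.5% in spinal cord (30.5 to 36.5, 965 reads) and 23.6% in eye (17.4 to 30.9), and 25%, 32.0% and 21.2% in the 11-, 15- and 17-day embryos. Among the other adult libraries with at least 20 reads it ran from 9.52% in liver (1.17 to 30.4, 21 reads) to 31.1% in heart (19.9 to 44.3). Kidney had 17 reads and testis 3, too few to place. The 3p arm held the majority in every library but testis, where 2 of the 3 reads were 5p.

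In the class test of arm usage neither hairpin passed. In the nervous class against the other adult class, where 5.88% of 238 hairpins passed, the log2 odds of 5p changed by 0.53 ± 0.27 for mir-132 (SE, edgeR adjusted p = 0.28) and by 0.52 ± 0.35 for mir-212 (edgeR adjusted p = 0.44). The mean 5p share of mir-132 was 11.2% ± 1.7 in the nervous libraries (SD, n = 3) and 8.58% ± 2.71 in the other adult libraries (SD, n = 9). In embryos, where 19.7% of hairpins passed, the changes were 0.026 ± 0.269 for mir-132 (edgeR adjusted p = 0.97) and 0.35 ± 0.40 for mir-212 (edgeR adjusted p = 0.56). Over libraries with at least 20 reads the share of mir-132 spanned 8.13 points and that of mir-212 spanned 23.9 points, ranks 100 and 34 of 219 hairpins, whose median was 5.89 points. By the SD of the log2 arm ratio over libraries, mir-132 had 0.43 and mir-212 had 0.60, ranks 199 and 148 of the same hairpins, below their median of 0.77.

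**Figure D4:**
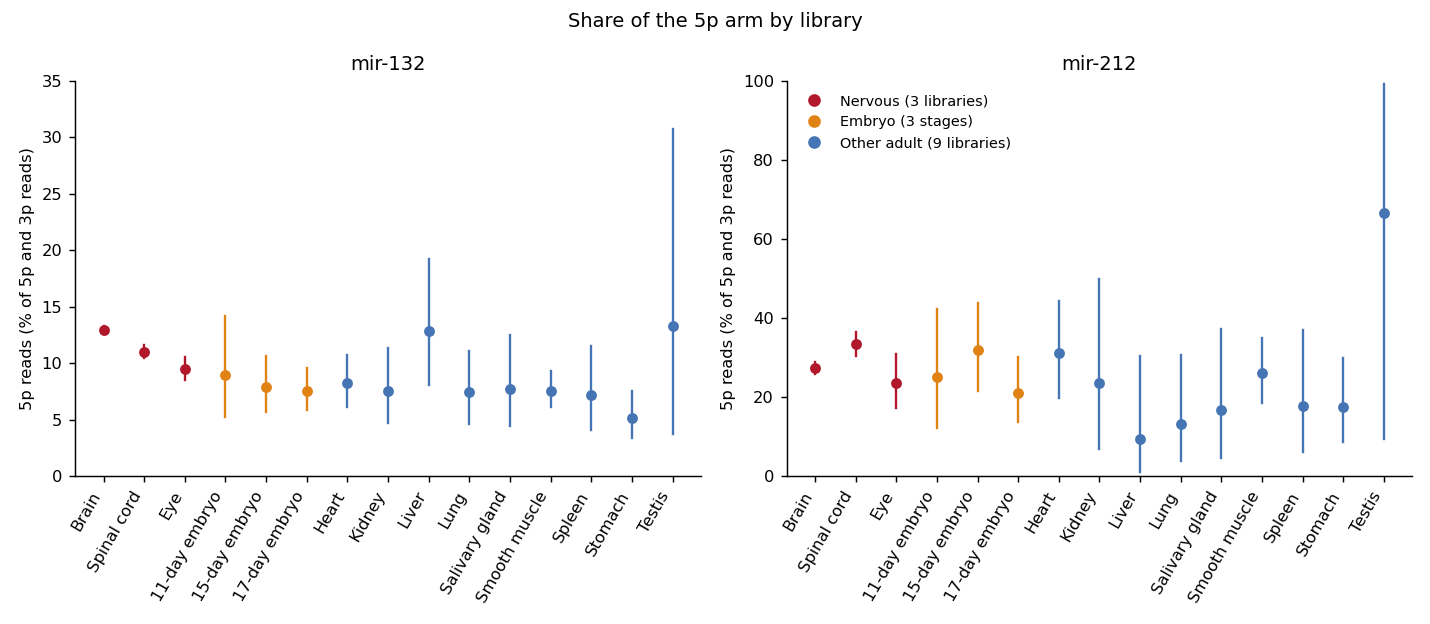
5p reads as a percent of 5p and 3p reads for mir-132 (left, axis to 35%) and mir-212 (right, axis to 100%) by library, with exact Clopper-Pearson 95% intervals. For mir-132 brain (12.9%) is above spinal cord (11.0%), for mir-212 spinal cord (33.5%) is above brain (27.4%), and the testis values rest on 30 and 3 reads.

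mir-132 outnumbered mir-212 in every library, by a ratio that was largest in eye. Counting both arms, there were 11.6 mir-132 reads per mir-212 read in brain (11.2 to 12.01), 11.5 in spinal cord (10.8 to 12.3) and 20.2 in eye (17.3 to 23.8). The embryos had 4.94 at day 11 (3.44 to 7.29), 6.41 at day 15 (5.02 to 8.29) and 7.86 at day 17 (6.40 to 9.73), with neighbouring intervals that overlap. Other adult libraries ranged from 7.38 in liver (4.66 to 12.3) to 16.3 in kidney (9.99 to 28.4, 17 mir-212 reads), with a median of 9.29.

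Brain and spinal cord had the same ratio within counting error, while mir-132 and mir-212 were both higher in brain. The ratio of the seed-sharing 3p strands was 13.9 in brain (13.4 to 14.5), 15.4 in spinal cord (14.2 to 16.7) and 23.9 in eye (20.02 to 28.8), and 6, 8.69 and 9.21 in the 11-, 15- and 17-day embryos. miR-132-3p supplied 93.3% of reads with the AACAGUC seed in brain and 85.7% in the 11-day embryo. For the 5p strands the ratio was lower, 5.49 in brain (5.13 to 5.89), 3.80 in spinal cord (3.36 to 4.31) and 8.15 in eye (5.84 to 11.7), and brain and spinal cord were then apart.

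Class differences in the ratio were tested by exact permutation, two-sided, in which 12 libraries allow 220 splits and p can go no lower than 0.0091. For both arms the mean log2 ratio was 3.80 ± 0.46 in the nervous libraries (SD, n = 3) and 3.18 ± 0.34 in the other adult libraries (SD, n = 9), a difference of 0.62 (exact p = 0.073, adjusted 0.12 over 6 tests), with 3 of 3 nervous libraries above the other adult median. In embryos the mean was 2.64 ± 0.34 (SD, n = 3), a difference of -0.54 (exact p = 0.027, adjusted 0.12), with 2 of 3 stages below every other adult library and all 3 below their median. The 3p ratio differed by 0.64 in the nervous class and by -0.51 in embryos (adjusted exact p 0.12 for both), and the 5p ratio by 0.71 and -0.78 in the same order (adjusted exact p 0.14 in the nervous class and 0.12 in embryos). None of the 6 passed after adjustment. Without eye the nervous difference for both arms was 0.35, and without the 11-day embryo the embryo difference was -0.36.

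**Figure D5:**
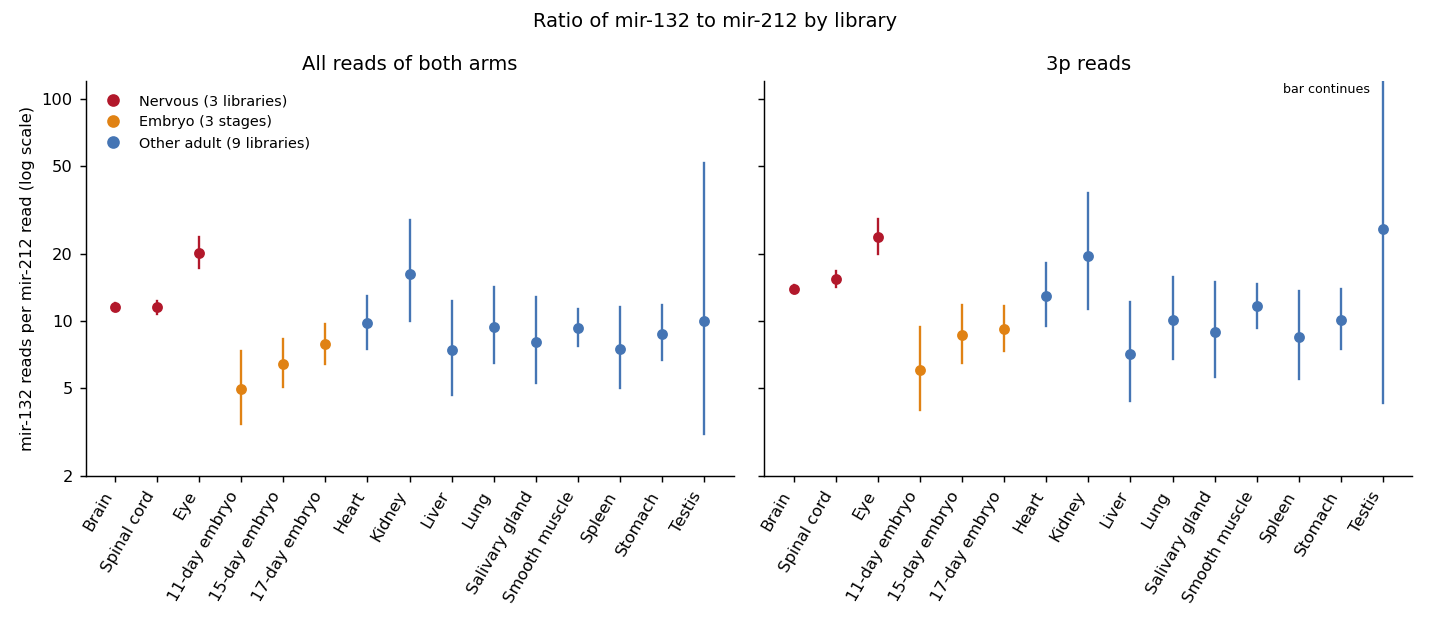
Reads of mir-132 per read of mir-212 (log scale) by library, for both arms (left) and for the 3p strands (right), with 95% intervals from the exact binomial interval of the mir-132 share. Eye (20.2) stands above brain (11.6) and spinal cord (11.5), and the 11- and 15-day embryos (4.94 and 6.41) are the lowest points for both arms.

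The 4 strands ran in parallel over the 15 libraries, with Pearson r of log2(CPM + 1) between 0.93 and 0.99 for every pair, as a description across libraries that share their depth between strands. Outside the cluster the name most like miR-132-3p was miR-700-3p, with r = 0.92 over 15 libraries and 0.90 over the 12 outside the nervous class. Over those 12 the r with miR-132-3p was 0.95 for miR-132-5p, 0.90 for miR-212-3p and 0.83 for miR-212-5p. These values cannot be ranked against that of miR-700-3p, which was picked for having the highest r of all names outside the cluster. Low counts also limit them, with 1 read of miR-212-3p in testis and 2 of miR-212-5p in liver. miR-700-3p had 4 reads in testis. miR-700-3p was far rarer and less spread, at 61.0 CPM in brain, 81.3 CPM in spinal cord and 43.0 CPM in eye, 29.2, 22.5 and 32.0 CPM in the 11-, 15- and 17-day embryos, and 6.34 to 31.4 CPM in the other adult libraries. Next over 15 libraries came miR-338-5p (0.88), the 5p strand of an oligodendrocyte hairpin, then miR-129-1-3p, miR-491-5p and miR-700-5p (all 0.86). Over the 12 libraries outside the nervous class the next were miR-23a-5p (0.86), miR-143-5p (0.84), the minor strand of the smooth muscle hairpin mir-143, miR-27a-5p (0.83) and miR-194-1-3p (0.82). The r of miR-194-1-3p rests on few libraries. It had 2766 reads in smooth muscle, 79 in stomach, 25 in the 17-day embryo and at most 5 in each of the rest. These r values rest on log2 of TMM-scaled CPM plus 1 and carry no test.

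Other miRNAs described as regulated by activity or light in neurons or retina were followed as a list of 13. They were picked for their link to neurons or retina, so a rise in the nervous class was likely beforehand. The list includes the photoreceptor miRNAs named above, and eye is in the nervous class. Its counts are therefore a description, not a test of activity. Of the 13, 12 rose and 1 fell in the nervous class against the other adult class, where 28.4% of all names rose and 12.6% fell. The list's median log2 fold change was 4.57 against -0.21 for all names. The largest changes were those of miR-184-3p (9.13 ± 1.58, edgeR adjusted p = 0.00026), of lens and retina, and of miR-211-5p (8.96 ± 1.68) and miR-204-5p (5.96 ± 1.07), of pigment epithelium. The first and second of these rest on eye. miR-184-3p had 37167 CPM in eye against 40.2 CPM in brain and 2.89 CPM in spinal cord. Without eye the values were -0.42 for miR-184-3p, -0.42 for miR-211-5p and 3.59 for miR-204-5p, and 7 of the 13 rose. That refit called 294 names in either direction, against 284 with eye, and its split into rises and falls was not recorded. Of the list members whose changes are printed here, miR-204-5p and miR-219a-5p were among the 7 that rose without eye. The 4 mir-132 and mir-212 strands also kept their calls without eye, with values from 4.09 for miR-212-3p to 5.21 for miR-132-5p.

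The smallest changes in the list were those of miR-219a-5p (3.13 ± 0.65, edgeR adjusted p = 0.0012; 2.08 without spinal cord), a strand named for circadian timing and myelinating cells, and of miR-188-5p (-1.31 ± 0.47, edgeR adjusted p = 0.037). The call on miR-188-5p was lost without brain, spinal cord, eye or lung (edgeR adjusted p 0.052 to 0.15). In embryos against the other adult class 6 of the 13 rose and 0 fell, where 27% of all names rose and 17.2% fell. In the nervous class against embryos 3 of the 13 rose and 1 fell, near the 14.3% and 11.7% of all names that rose and fell. The count of list members that rose was 0 without the 11-, 15- or 17-day embryo, where 95, 116 and 129 names passed in either direction. It was 1 without eye, where 168 names passed, against 180 with all libraries. The 4 mir-132 and mir-212 strands rose against the embryos whichever single library was left out (highest edgeR adjusted p 0.046).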

How the data were processed

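The deposited files hold raw read counts per mature miRNA name, 1 file per library. Per the submitters' processing notes, the tools were bcl2fastq 1.8.4, cutadapt, BWA and bedtools and the build mm10, and their options and the handling of multiply mapped reads are not given in the sources used. Spike-in RNAs, named in the protocols, were not used. A name missing from a file was taken as 0.

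Levels are CPM of the library total with exact Poisson intervals, and shares have exact Clopper-Pearson intervals. Classes of tissue were set from the titles. For abundance edgeR 4.0.16 (R 4.3.3) fitted quasi-likelihood models with TMM scaling and filterByExpr to all 15 libraries together. For arm usage it fitted the 5p and 3p counts of hairpins that reached 20 reads in 8 or more libraries, with a term per library. The SE is the log2 fold change divided by the square root of F. The filter removed 13.1% of testis reads and at most 0.215% elsewhere, none of them from the 4 strands. Adjusted p-values are Benjamini-Hochberg over all names or hairpins, with a threshold of 0.05. Ratios used a pseudocount of 0.5 in their tests, with scipy 1.17.1. Fits were tested on simulated data. Alternatives were DESeq2 1.42.0, limma 3.58.1, other scaling, filters and left-out libraries.

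The names described were the 4 strands, the 5 names most correlated with miR-132-3p over each set of libraries, and the 3 largest and 2 smallest changes of the activity list. The strands and lists were chosen with earlier results of these data known. Sequences come from RefSeq (GRCm38.p6), where all 4 strands matched by name.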

Additional observations from a re-analysis of the deposited data

Results flagged for a closer look

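Of 9 measures examined over the 9 other adult libraries (the level of each strand, the 5p share of each hairpin and the mir-132 to mir-212 ratio for both arms, 3p and 5p), 2 had a library set apart from the rest by a gap large against the range. Chance sets about 1 such group in 20 apart. The 5p share of mir-212 was 66.7% in testis, from 3 reads with an interval of 9.43 to 99.2, so the gap cannot be told from counting error. The log2 ratio of mir-132 to mir-212 over both arms was 3.99 in kidney, where 17 mir-212 reads gave a ratio of 16.3 (9.99 to 28.4), and that interval overlaps those of the other 8 libraries.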

How the results depend on the processing

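The 4 strands kept their direction and their call in the nervous class, against the other adult class and against embryos, under DESeq2, other scaling, no filter, only the classes compared, each left-out library, and testis and smooth muscle left out together (added after seeing the data). No strand passed in embryos against the other adult class, and no ratio or arm usage test of the hairpins passed, under any alternative run. With total counts the embryo values turned to 0.31 for miR-212-3p and 0.47 for miR-212-5p. The embryo change in mir-132 arm usage was -0.044 by limma and ranged from -0.064 to 0.12 over left-out libraries. Counts of names or hairpins called moved more. For the nervous class against embryos 180 names passed, 119 with no filter, 272 with only the classes compared and 95 to 200 over left-out libraries (95 without the 11-day embryo, 107 without brain, 110 without spinal cord, 116 without the 15-day embryo). Against the other adult class 284 passed, and 186 to 303 over left-out libraries, 186 without brain. Arm usage passed for 14 hairpins in the nervous class, 4 to 28 over left-out libraries (4 without spinal cord, 7 without brain, 9 without lung, 28 without stomach), and for 47 in embryos, 18 by limma and 22 to 50 over left-out libraries (29 without the 11-day, 22 without the 15-day and 28 without the 17-day embryo). Of the activity list 12 rose in the nervous class against the other adult class, 7 to 12 over left-out libraries, and 3 against embryos, 0 to 4 over left-out libraries and 0 with total counts. DESeq2 gave 6 of its 13 members no adjusted p, so that list count was not compared there. miR-188-5p was -0.85 with total counts and -1.07 with no filter, past the threshold in neither. Over left-out libraries miR-184-3p ranged from -0.42 to 9.71 and miR-211-5p from -0.42 to 9.96, both lowest without eye. No paired analysis was possible because each tissue or stage had 1 library and the labels do not link libraries by animal. Depth limits the mir-212 values most, with 3 reads in testis and 17 in kidney.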
